A study of Mus musculus with 40 samples.

Results

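The endoplasmic reticulum (ER) folding machinery and the stress responses tied to it were followed as 37 genes in the uterus of prepubertal mice given doxorubicin, anti-Müllerian hormone (AMH), both or neither. The genes were taken by symbol from the 54532 genes of the deposited expression table, and all 37 were found; of 2 rows named Ddit3, the second (ENSMUSG00000116429) was listed at 0 throughout and was not used. A chaperone and secretory arm held 30 of them, made up of 16 chaperones and foldases, 3 sensors or factors of the unfolded protein response, 3 parts of the translocation channel and 8 genes of ER-associated degradation. The ATF4/CHOP arm held the other 7. Doxorubicin is an anthracycline that poisons topoisomerase II and breaks DNA, and AMH is a hormone of the TGF-beta family. The study had 8 groups of 5 bulk RNA-seq libraries of whole uterus. At each of 4 h and 24 h there were uteri of mice given doxorubicin at 3 mg/kg, uteri of mice given doxorubicin at 3 mg/kg with AMH at 0.75 mg/kg, uteri of mice given AMH alone at 0.75 mg/kg, and control uteri of mice given PBS or saline. The mice were treated at postnatal day 25, and doxorubicin was given in 2 weekly doses. The 40 libraries are numbered 1 to 5 within a group. The labels do not say that each library is 1 mouse, so p-values measure the spread between libraries.

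Proteins that enter the secretory pathway fold in the ER with the help of chaperones and disulfide isomerases. When unfolded proteins build up, the sensors IRE1 (Ern1), ATF6 and PERK start the unfolded protein response: IRE1 splices the mRNA of the factor XBP1, ATF6 is cut and moves to the nucleus, and both switch on chaperone and degradation genes. PERK phosphorylates eIF2alpha, as do the kinases that sense amino acid lack, viral RNA and haem lack; this integrated stress response lowers bulk translation while the mRNA of the factor ATF4 is translated more, and ATF4 with its partner CHOP (Ddit3) switches on genes of amino acid supply and of feedback. The uterus is also a secretory organ whose epithelium makes more secreted protein under oestrogen.

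The promoters show which of these genes carry the known letters for those factors. RefSeq promoter windows (GRCm38.p6, 250 bases before to 50 after the start site) were matched for 32 of the 37 genes, and both strands were searched. The ER stress element (ERSE) bound by ATF6, CCAAT followed after 9 bases of any kind by CCACG, was present in 9 of 25 matched genes of the chaperone and secretory arm (36%), in 0 of 7 genes of the ATF4/CHOP arm, and in 0.119% of all 32851 windows. Of 14 matched chaperones and foldases, 7 held it: Hspa5, Calr, Hsp90b1, Canx, Pdia6, Dnajc3 and Creld2, with 2 copies in Hsp90b1. The related ERSE-II, ATTGG and CCACG with 1 base between them, was present in Herpud1 and Dnajb11 and in 0.0365% of all windows. The C/EBP-ATF element read by ATF4 and CHOP dimers, TGATGNAA, was present in Chac1, Trib3 and Asns, in 3 of 7 genes of that arm, in Herpud1 and in 3.97% of all windows. The XBP1 element TGACGTGG was present in 0 of these genes and in 0.676% of all windows. No match overlapped another; a match is a description of letters, not of binding. The 250 bases before the start site are shown for Hspa5 (chr2:34771840-34772089, plus strand), Calr (chr8:84846932-84847181, minus strand) and Hsp90b1 (chr10:86705445-86705694, minus strand) as chaperones that fell with AMH at 4 h, for Herpud1 (chr8:94386179-94386428, plus strand) as the gene with elements of both arms, and for Asns (chr6:7693210-7693459, minus strand) as the ATF4 target that moved with the chaperones. They run 5′ to 3′ on the gene's strand, and capitals mark the elements.
Hspa5: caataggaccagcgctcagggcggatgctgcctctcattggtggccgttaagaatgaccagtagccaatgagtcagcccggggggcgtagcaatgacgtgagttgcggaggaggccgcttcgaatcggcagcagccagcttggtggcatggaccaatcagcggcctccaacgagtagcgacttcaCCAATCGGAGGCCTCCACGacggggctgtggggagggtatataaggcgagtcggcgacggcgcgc
Calr: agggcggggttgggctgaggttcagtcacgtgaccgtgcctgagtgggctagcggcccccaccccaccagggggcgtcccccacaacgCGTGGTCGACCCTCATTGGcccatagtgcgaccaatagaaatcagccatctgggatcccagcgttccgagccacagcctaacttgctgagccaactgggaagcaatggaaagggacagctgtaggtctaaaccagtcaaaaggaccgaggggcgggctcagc
Hsp90b1: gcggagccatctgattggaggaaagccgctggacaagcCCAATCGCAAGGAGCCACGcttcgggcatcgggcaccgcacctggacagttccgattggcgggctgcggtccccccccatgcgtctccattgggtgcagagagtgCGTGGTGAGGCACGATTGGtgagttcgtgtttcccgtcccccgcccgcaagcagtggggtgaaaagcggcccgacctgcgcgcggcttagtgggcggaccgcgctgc
Herpud1: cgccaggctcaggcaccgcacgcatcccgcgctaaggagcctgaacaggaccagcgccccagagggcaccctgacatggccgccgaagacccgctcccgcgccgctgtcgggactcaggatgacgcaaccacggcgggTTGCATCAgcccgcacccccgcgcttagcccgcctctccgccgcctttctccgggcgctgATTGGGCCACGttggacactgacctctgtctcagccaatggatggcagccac
Asns: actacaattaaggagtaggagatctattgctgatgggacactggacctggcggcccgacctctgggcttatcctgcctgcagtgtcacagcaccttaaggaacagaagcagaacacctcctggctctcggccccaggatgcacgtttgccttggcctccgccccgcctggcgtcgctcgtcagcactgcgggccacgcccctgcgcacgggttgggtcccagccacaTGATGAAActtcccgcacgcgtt

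**Figure D1:**
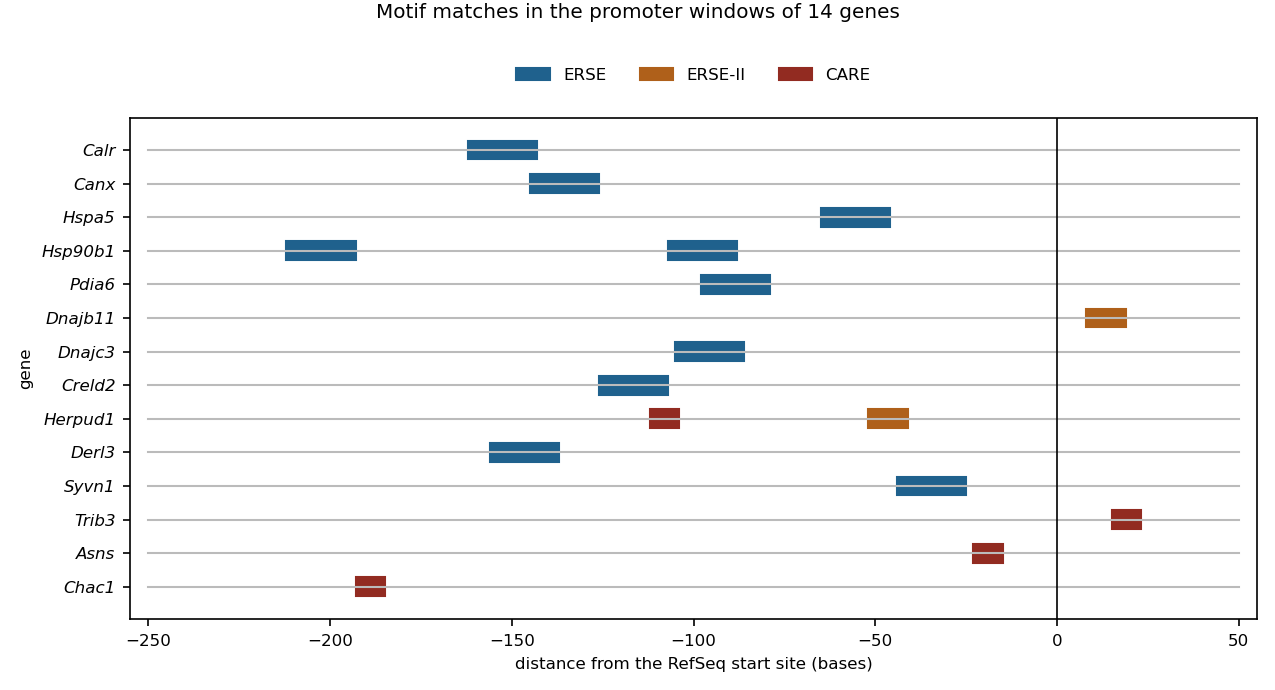
Positions of the ER stress element (ERSE), ERSE-II and the C/EBP-ATF element (CARE) in the promoter windows of the 14 genes that held 1, as distance in bases from the RefSeq start site (x axis), 1 gene per line. The ERSE marks lie in chaperone and degradation genes and the CARE marks in Chac1, Trib3, Asns and Herpud1; Herpud1 holds both an ERSE-II and a CARE.

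Values were deposited as FPKM, fragments scaled to gene length and to a total for the library, so that levels of different genes can be set side by side. Reads rebuilt from them came to 16251563 to 27391049 per library. The total that the values imply differed from these reads. It was lowest in control libraries 2 and 1 at 24 h, at 0.859 and 0.891 times the reads. The highest was 1.06 times, in doxorubicin-plus-AMH library 5 at 24 h. The rebuilt reads were 4016 to 48133 per library for Hspa5 and 2614 to 9202 for Ssr1, but 21 to 169 for Trib3 and 0 to 100 for Chac1, whose values are the least precise. Differences were tested with limma on log2(FPKM + 1) over the 16226 genes that reached 1 FPKM in 5 libraries or more, with p-values adjusted over all of them; "rose" and "fell" are used only where the adjusted p is under 0.05. Means are given ± SD over 5 libraries and log2 fold changes ± SE. Overlap between groups was counted for the 37 genes only. Counts of calls under other settings also cover the 37 genes, without a share over all genes unless 1 is given. All 37 genes passed that filter. For 7 of them, Pdia3, Pdia6, Manf, Derl2, Syvn1, Ddit3 and Ppp1r15a, another protein-coding gene overlaps on the genome, so that reads could have been given to the wrong gene. Mean levels over the 40 libraries ran from 0.649 FPKM for Chac1 to 274 FPKM for P4hb. The labels were checked first. Cdkn1a, a p53 target, averaged 57.9 ± 30.3 FPKM in doxorubicin uteri and 3.92 ± 1.25 FPKM in control uteri at 4 h (SD, n = 5 each), and Id3, a target of BMP-type signalling, averaged 70.8 ± 7.9 FPKM in AMH uteri and 41.2 ± 4.3 FPKM in control uteri at 4 h. At 24 h Id3 rose by 0.76 ± 0.17 with AMH alone (limma adjusted p = 0.043). It also rose by 0.88 ± 0.17 with doxorubicin alone (limma adjusted p = 0.0017), so it does not single out AMH at that time. Uterine markers were present in every library, with Hoxa10 at 41.6 to 129 FPKM. Some libraries stood apart. The mean log2(FPKM + 1) of an oestrogen-responsive list lay more than 1 above the median of the 40 libraries in control libraries 1, 2 and 4 and in AMH library 3 at 24 h, and the same measure of oviduct and ciliated cell markers did so in 8 libraries, among them doxorubicin libraries 3, 4 and 5 and doxorubicin-plus-AMH library 4 at 24 h. They are called high-oestrogen and high-oviduct libraries here. Both sets were defined after the data were seen, and results that rest on them are given with and without them.

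AMH alone at 4 h lowered most of the chaperones. Of the 37 genes, 17 fell and 4 rose in AMH uteri against control uteri; 20.0% of all genes tested were called in that comparison, 10.9% lower and 9.13% higher. The chaperone and secretory arm had 16 of 30 genes lower and 1 higher, while the ATF4/CHOP arm had 3 of 7 higher and 1 lower. The median log2 fold change was -1.10 over the 16 chaperones and foldases and 0.01 over all genes tested. In bulk tissue, fewer cells of a type and less RNA per cell cannot be told apart.

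Of the 16 chaperones and foldases, 13 fell. Calr encodes calreticulin, the lectin chaperone that binds calcium in the ER lumen (chr8:84841850-84846934 in mm10, ENSMUSG00000003814). It stood at 89.7, 127, 96.1, 102 and 82.1 FPKM in the AMH libraries at 4 h, against 378, 416, 242, 437 and 311 FPKM in the control libraries. Every AMH library lay below every control library. Calr fell by 1.82 ± 0.32 (SE) on the log2 scale (limma adjusted p = 0.0023). Its membrane-bound relative Canx, calnexin, fell by 0.77 ± 0.19 (limma adjusted p = 0.0072). Sdf2l1, a partner of the BiP chaperone complex (chr16:17130138-17132383, ENSMUSG00000022769), had the largest fitted fall of the 37 genes in this comparison. It stood at 2.82, 4.31, 3.23, 3.85 and 2.57 FPKM in the AMH libraries, against 27, 26.8, 11.7, 25.5 and 15.4 FPKM in the control libraries. The groups did not overlap, and Sdf2l1 fell by 2.30 ± 0.51 on the log2 scale (limma adjusted p = 0.0054).

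The same held for the main ER members of the HSP70 and HSP90 families. Hspa5, which encodes BiP, the HSP70 chaperone that also holds the stress sensors inactive (chr2:34771970-34777547, ENSMUSG00000026864), stood at 52.1, 71.5, 50.5, 46.6 and 51.1 FPKM in the AMH libraries, against 138, 147, 93.7, 140 and 93.8 FPKM in the control libraries. AMH library 2 was the highest of its group and still lay below every control library. Hspa5 fell by 1.15 ± 0.34 (limma adjusted p = 0.019), but without control library 2 at 4 h its adjusted p was 0.0531. Hsp90b1, which encodes GRP94, stood at 47.4, 62, 57.8, 47.2 and 55.3 FPKM in the AMH libraries, against 164, 174, 96.6, 149 and 113 FPKM in the control libraries. It fell by 1.33 ± 0.29 (limma adjusted p = 0.0054), again without overlap. Hyou1, the large exchange factor of BiP, fell by 1.10 ± 0.34 (limma adjusted p = 0.022). The BiP co-chaperone Dnajb11 averaged 14.1 ± 0.667 FPKM in AMH uteri and 28.2 ± 5.46 FPKM in control uteri, and fell. Without control library 2 or 4, the adjusted p was 0.0551 to 0.0598 for Hyou1 and 0.0513 to 0.0519 for Dnajb11.

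The disulfide isomerases, which form and reshuffle disulfide bonds, all fell. Pdia6 stood at 33.9, 41, 34.1, 34.1 and 35.6 FPKM in the AMH libraries, against 137, 143, 74.7, 142 and 94.4 FPKM in the control libraries, a fall of 1.65 ± 0.32 (limma adjusted p = 0.003). Pdia3, which works with calreticulin and calnexin on glycoproteins, averaged 121 ± 12.5 FPKM in AMH uteri and 331 ± 63.1 FPKM in control uteri, a fall of 1.42 ± 0.26 (limma adjusted p = 0.003). Neither pair of groups overlapped. P4hb, the most abundant isomerase here, fell less, to 208 ± 14.9 FPKM in AMH uteri against 352 ± 53.7 FPKM in control uteri. Pdia4 and Pdia5 fell by 1.18 and 0.82 on the log2 scale. Manf, a secreted ER protein of the same stress response, fell by 1.10 ± 0.39 (limma adjusted p = 0.043), and this call was lost without any 1 of 7 libraries (adjusted p 0.0671 to 0.102).

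Not every chaperone followed. Creld2, another secreted ER stress protein, had a log2 fold change of -0.91 ± 0.38 (limma adjusted p = 0.079), with the groups apart. Dnajc3 overlapped between groups, at 19.3 ± 2.47 FPKM in AMH uteri and 26.6 ± 4.68 FPKM in control uteri. Dnajb9, the BiP co-chaperone that represses IRE1, was the only 1 of the 16 with every AMH library above every control library. It stood at 16.9, 18.8, 15.6, 15.3 and 14.4 FPKM in the AMH libraries, against 13.7, 12.5, 11.9, 13.5 and 13.7 FPKM in the control libraries, without passing the test.

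The channel through which new chains enter the ER fell with the chaperones. All 3 genes were lower: the channel subunits Sec61a1 and Sec61b, by 0.69 ± 0.19 and 1.08 ± 0.29, and Ssr1, a subunit of the translocon-associated complex, by 0.90 ± 0.22 on the log2 scale (limma adjusted p = 0.013, 0.012 and 0.0081). Ssr1 stood at 14.9, 18.1, 13, 15.3 and 14.1 FPKM in the AMH libraries, against 30.2, 32.9, 24.3, 31.9 and 25.7 FPKM in the control libraries, with no overlap. None of the 3 sensors or factors Xbp1, Atf6 and Ern1 passed the test. Atf6 averaged 7.21 ± 0.634 FPKM in AMH uteri and 7.85 ± 0.396 FPKM in control uteri, and Ern1 averaged 9.17 ± 0.977 and 8.09 ± 1.1 FPKM in the same order.

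In ER-associated degradation, which returns misfolded proteins to the cytosol, 1 of 8 genes passed, and it rose. Herpud1 encodes a membrane protein of the degradation complex (chr8:94386438-94395377, ENSMUSG00000031770) and is the gene whose promoter holds both an ERSE-II and a C/EBP-ATF element. It stood at 48.4, 42.3, 49.7, 47.4 and 45.8 FPKM in the AMH libraries at 4 h, against 33.4, 32.5, 36.1, 35.9 and 32.8 FPKM in the control libraries. The 5 AMH libraries all lay above the 5 control libraries. The rise was 0.44 ± 0.15 (limma adjusted p = 0.032), and leaving out any 1 of 8 libraries gave an adjusted p of 0.05 to 0.0716.

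Within the ATF4/CHOP arm the genes moved in both directions. Trib3, a pseudokinase that is a target of ATF4 and CHOP and inhibits ATF4 in return (chr2:152337422-152344032, ENSMUSG00000032715), stood at 2.48, 2.27, 2.32, 2.25 and 3.38 FPKM in the AMH libraries, against 1.31, 0.797, 0.666, 0.846 and 1.14 FPKM in the control libraries. Every AMH library lay above every control library. Trib3 rose by 0.86 ± 0.21 on the log2(FPKM + 1) scale, which understates changes of genes this low (limma adjusted p = 0.0071). Ddit3, which encodes CHOP, stood at 12.3, 8.87, 11.4, 11.9 and 12 FPKM in the AMH libraries, against 6.31, 6.04, 8.07, 7.56 and 8.48 FPKM in the control libraries. AMH library 2 was the lowest of its group but above every control library. Ddit3 rose by 0.57 ± 0.17 (limma adjusted p = 0.017). Ppp1r15a, which encodes GADD34, the phosphatase subunit that reverses eIF2alpha phosphorylation, averaged 12.3 ± 0.735 FPKM in AMH uteri and 8.32 ± 1.35 FPKM in control uteri, a rise of 0.52 ± 0.15 (limma adjusted p = 0.017). Without control library 2 at 4 h the adjusted p was 0.0558 for Ddit3 and 0.052 for Ppp1r15a. Both are among the genes that another gene overlaps, Ddit3 by Mars and by the second Ddit3 entry, and Ppp1r15a by Tulp2.

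Asns went the other way. It encodes asparagine synthetase, an ATF4 target of amino acid supply (chr6:7675169-7693254, ENSMUSG00000029752), and stood at 3.11, 5.97, 4.5, 4.32 and 4.36 FPKM in the AMH libraries, against 16.8, 17.6, 9.42, 13.7 and 10.3 FPKM in the control libraries. The groups did not overlap, and Asns fell by 1.40 ± 0.33 (limma adjusted p = 0.0069). Atf4 itself had 50.3, 46.8, 48.5, 51.3 and 50.4 FPKM in the AMH libraries, against 62.6, 75.3, 68.8, 77.7 and 51.6 FPKM in the control libraries. Each AMH library lay below each control library, but the log2 fold change of -0.42 ± 0.18 did not pass (limma adjusted p = 0.096). Across the 37 genes at 4 h, AMH libraries were all below control libraries for 21 genes and all above for 5, and they overlapped for 11. The share of all genes without overlap was not counted, and 20.0% of all genes were called in this comparison.

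**Figure D2:**
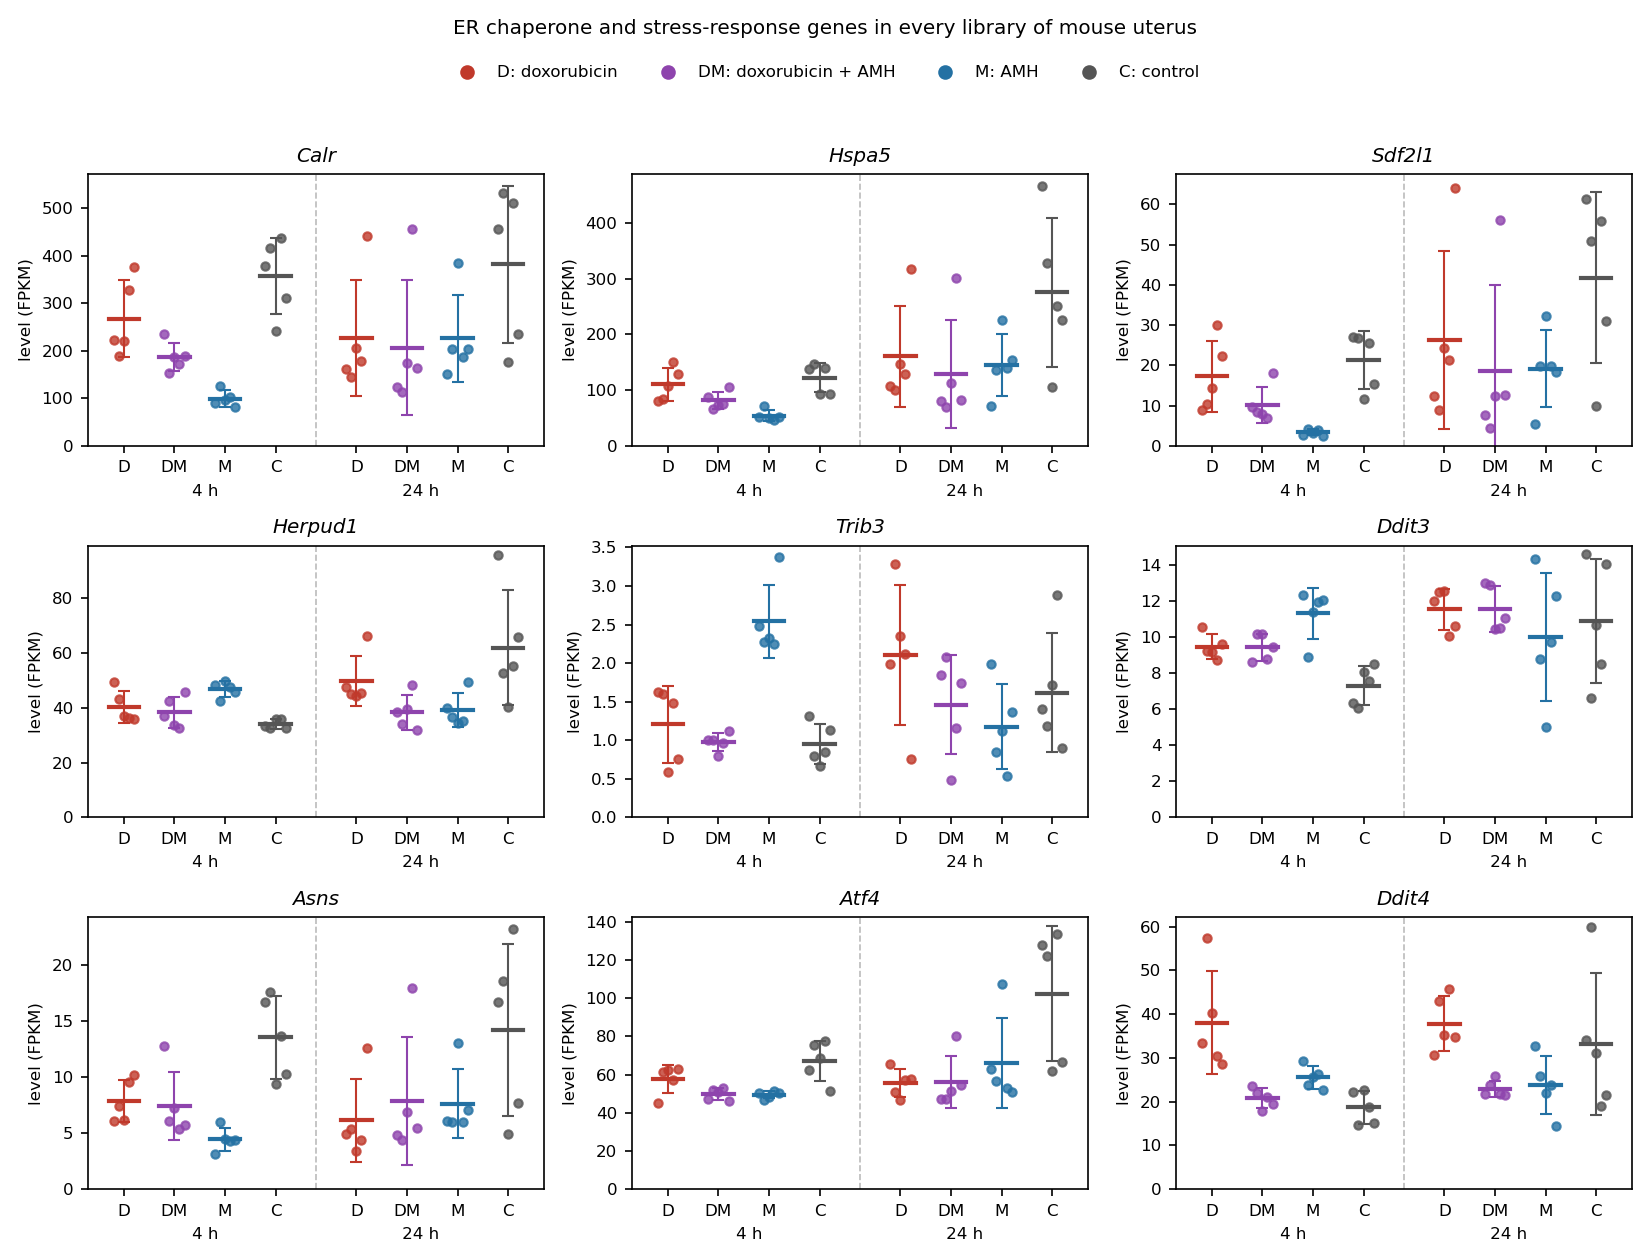
FPKM per library (points) of 9 genes, with the group mean (bar) and SD (error bar), n = 5; groups run doxorubicin (D), doxorubicin with AMH (DM), AMH (M) and control (C) at 4 h, then at 24 h. At 4 h the AMH libraries of Calr, Hspa5, Sdf2l1 and Asns lie below all control libraries and those of Herpud1, Trib3 and Ddit3 above them, while at 24 h the control libraries of Hspa5 spread over 105 to 466 FPKM.

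Genes of the same pathways outside the 37 were lower as well. Of 68 other ER and secretory genes tested, 29 fell and 1 rose in AMH uteri at 4 h. Rpn1, a subunit of the oligosaccharyltransferase, averaged 34.9 ± 4.34 FPKM in AMH uteri and 85.1 ± 16.2 FPKM in control uteri. Of 42 other integrated stress response genes, 20 fell and 1 rose. Pycr1, a proline synthesis enzyme, averaged 1.63 ± 0.304 FPKM in AMH uteri and 8.26 ± 1.76 FPKM in control uteri, and Mars, a methionyl-tRNA synthetase, averaged 10.2 ± 1.55 and 25.7 ± 6.39 FPKM in the same order.

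Oestrogen-responsive genes moved with this result. Their mean log2(FPKM + 1) was 3.15 to 3.67 in AMH libraries and 3.78 to 4.53 in control libraries at 4 h, without overlap, and their summed FPKM was 643 to 1029 in AMH libraries and 880 to 1581 in control libraries. Of 21 genes of that list tested, 3 fell and 0 rose, where 10.9% of all genes fell, and 0 of the 21 had a log2 fold change above 0. Areg was too low to judge, at 0 in every AMH library and at 0 to 0.339 FPKM in the control libraries. With that mean as a covariate, 5 of the 37 genes were called: Trib3 higher, and Calr, Pdia3, Pdia5 and Pdia6 lower. The covariate gave log2 fold changes of -1.41 for Calr (limma adjusted p = 0.022) and -0.74 for Hspa5 (limma adjusted p = 0.18). Summed plasma cell markers were 29.2 to 68.4 FPKM in AMH libraries and 20.6 to 61.0 FPKM in control libraries, and summed epithelial markers were 651 to 989 and 760 to 1056 FPKM in the same order. Summed skeletal muscle markers did not overlap, at 46.8 to 69.0 FPKM in AMH libraries and 92.4 to 146 FPKM in control libraries. Of 3 of these markers tested, 1 was lower and 2 had a log2 fold change above 0. Summed smooth muscle markers were 2492 to 3156 FPKM in AMH libraries and 3095 to 3976 FPKM in control libraries, with 2 of 10 lower and 1 higher. The part of oestrogen response or cell makeup in the chaperone result was not tested beyond these values.

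AMH alone at 24 h gave no call in the fit of all libraries. In AMH uteri against control uteri at 24 h, 0 of the 37 genes passed with limma (0.462% of all genes called), and 0 with voom. Limma's unadjusted p was under 0.05 for 22 of the 37 and for 3058 of all 16226 genes. With library weights 28 were called, all of them lower, and the share of all genes called under that setting is not given here. The median log2 fold change was -0.67 over the chaperones and foldases. Hspa5 stood at 71, 137, 227, 140 and 154 FPKM in the AMH libraries, against 466, 329, 105, 251 and 226 FPKM in the control libraries. The groups overlapped, as they did for all 37 genes, and control library 3 was low where control library 1 was high. Calr had 152, 203, 385, 186 and 203 FPKM in the AMH libraries, against 456, 532, 175, 512 and 235 FPKM in the control libraries. This count rested on single libraries: without control library 3 at 24 h it was 21, without AMH library 3 it was 11, without control library 5 it was 2 and without AMH library 5 it was 1.

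Herpud1 differed between the times. It stood at 40, 36.7, 34.5, 35.1 and 49.4 FPKM in the AMH libraries at 24 h, against 95.8, 52.5, 40.3, 55.1 and 65.8 FPKM in the control libraries. Only AMH library 5 lay above the lowest control, which was again library 3. Its log2 fold change at 24 h was -0.60 ± 0.15 (limma adjusted p = 0.0503), where it had risen at 4 h. The difference of these effects, a comparison added after the data were seen, was -1.04 ± 0.21 (limma adjusted p = 0.026), and Herpud1 was the 1 member called of 37, with 0.154% of all genes called, 0.129% lower. It was not called without control library 1 or 2 at 4 h, without AMH library 3 or 4 at 24 h, or with only the groups compared in the fit (adjusted p 0.0507 to 0.0705). The same difference was -1.12 ± 0.29 for Trib3 (limma adjusted p = 0.094) and 1.12 ± 0.45 for Calr (limma adjusted p = 0.34). Without AMH library 1 at 24 h, 2 genes were called.

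Doxorubicin alone at 4 h changed 1 of the 37 genes, which rose (0.493% of all genes called). Ddit4 encodes REDD1, an inhibitor of mTORC1 that is induced by ATF4 and by p53 (chr10:59949669-59951834, ENSMUSG00000020108). It stood at 33.4, 57.5, 40.2, 30.4 and 28.6 FPKM in the doxorubicin libraries at 4 h, against 22.1, 14.7, 22.7, 18.8 and 15.2 FPKM in the control libraries. Every doxorubicin library lay above every control library. Ddit4 rose by 0.96 ± 0.21 (limma adjusted p = 0.02), but not without control library 2 or 5 or without doxorubicin library 2 or 3, where 0 genes were called (adjusted p 0.0609 to 0.109), nor without the high-oviduct libraries (0.17). With only the groups compared in the fit its limma adjusted p was 0.0995. Ddit3 was the other gene with no overlap, at 10.5, 9.22, 9.18, 8.7 and 9.63 FPKM in the doxorubicin libraries, and its log2 fold change of 0.34 did not pass (limma adjusted p = 0.41). Calr averaged 267 ± 80.7 FPKM in doxorubicin uteri and 357 ± 80 FPKM in control uteri, and none of the 30 genes of its arm was called by limma. Of 42 other integrated stress response genes, 2 rose: Sesn2, to 14.9 ± 5.56 FPKM in doxorubicin uteri against 3.04 ± 0.569 FPKM in control uteri, and Gdf15, to 4.28 ± 2.06 FPKM in doxorubicin uteri against 0.394 ± 0.11 FPKM in control uteri. Both are also p53 targets.

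At 24 h doxorubicin uteri had 1 of the 37 genes higher and 3 lower than control uteri. Of all genes, 18.4% were called, 8.44% higher and 9.95% lower, so the members' share by adjusted p lay below the background. By an unadjusted p under 0.05 it did not, with 17 of the 37 and 6059 of all 16226 genes. Edem2, a mannosidase that marks glycoproteins for degradation (chr2:155701677-155729475, ENSMUSG00000038312), stood at 17.6, 17.2, 18.8, 22.1 and 14.4 FPKM in the doxorubicin libraries, against 12.7, 13.4, 13.2, 11.5 and 13.7 FPKM in the control libraries. It was the 1 gene of the 37 without overlap in this comparison, and it rose by 0.44 ± 0.09 (limma adjusted p = 0.0032). Atf4 (chr15:80255184-80257541, ENSMUSG00000042406) stood at 65.4, 50.8, 46.5, 57.2 and 57.7 FPKM in the doxorubicin libraries, against 128, 122, 62, 134 and 66.4 FPKM in the control libraries. Control libraries 1, 2 and 4 were high, and controls 3 and 5 lay near the doxorubicin libraries. Atf4 fell by 0.81 ± 0.18 (limma adjusted p = 0.0051).

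The other 2 falls at 24 h were those of Asns and Ssr1. Asns had 4.88, 5.34, 3.43, 4.43 and 12.6 FPKM in the doxorubicin libraries, against 16.7, 18.6, 4.9, 23.2 and 7.66 FPKM in the control libraries. Doxorubicin library 5 was high and control libraries 3 and 5 were low, and Asns fell by 1.03 ± 0.33 (limma adjusted p = 0.031). Ssr1 averaged 18.2 ± 6.69 FPKM in doxorubicin uteri and 29.7 ± 10.9 FPKM in control uteri, a fall of 0.65 ± 0.22 (limma adjusted p = 0.041). The chaperones had a median log2 fold change of -0.64 with none called by limma. Sdf2l1 had 12.5, 8.9, 24.2, 21.3 and 64.1 FPKM in the doxorubicin libraries, against 61.3, 50.8, 9.84, 55.8 and 31.1 FPKM in the control libraries, with doxorubicin library 5 highest of all 10. Calr averaged 226 ± 122 FPKM in doxorubicin uteri and 382 ± 165 FPKM in control uteri (limma adjusted p = 0.089). In these groups 18 of 42 other integrated stress response genes fell and 3 rose, and 12 of 68 other ER and secretory genes fell and 1 rose.

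The count at 24 h rested on which libraries were in the fit. It was 23 without control library 3, 19 without doxorubicin library 5 and 8 without control library 5. It was 2 without control library 1, 2 or 4 or doxorubicin library 1, 2, 3 or 4, and Atf4 and Edem2 remained called in each of these. With only the groups compared in the fit the count was 0, where the limma adjusted p was 0.13 for Atf4 and 0.11 for Edem2. Without the 4 high-oestrogen libraries the count was 0 (limma), where Atf4 had a log2 fold change of -0.21 (adjusted p = 0.62), and with the 8 high-oviduct libraries left out it was 12, 1 higher and 11 lower. Of the 4 genes called with all libraries, only Edem2 was among those 12, since Atf4, Asns and Ssr1 had limma adjusted p-values of 0.0519, 0.0547 and 0.0503. Smooth muscle markers moved with this comparison: 10 of 10 fell, and their summed FPKM was 1679 to 2816 in doxorubicin libraries and 3542 to 5583 in control libraries. Summed oviduct and ciliated cell markers were 105 to 493 FPKM in doxorubicin libraries and 77.0 to 148 FPKM in control libraries, with 2 of 12 tested higher. Summed ovary markers were 121 FPKM in doxorubicin library 5 and 9.46 to 15.02 FPKM in the other doxorubicin libraries, and 5.44 to 45.1 FPKM in control libraries. The part of these markers in the members' values was not tested beyond leaving libraries out.

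The effect of doxorubicin was not shown to differ between the times. Of the 37 genes, 0 passed limma's test of that difference, where 0.0123% of all genes were called. An unadjusted p under 0.05 was reached by 3 of the 37 and by 1580 of all 16226 genes. Voom gave 0 calls and library weights gave 2, and the share of all genes called under these settings is not given here.

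AMH added to doxorubicin gave no call among the 37 genes against doxorubicin alone in the fit of all libraries. With limma 0 genes passed at 4 h (0.00616% of all genes called) and 0 at 24 h (0.333% of all genes called), and voom gave 0 at both times. Limma's unadjusted p was under 0.05 for 2 of the 37 and for 1123 of all 16226 genes at 4 h. At 24 h it was so for 5 of the 37 and for 2017 of all genes. Library weights gave 1 call at 4 h and 10 at 24 h, and leaving out the high-oestrogen libraries gave 1 at 24 h. The share of all genes called under these settings is not given here. Ddit4 was the 1 gene whose groups did not overlap, and it was so at both times. At 4 h it stood at 23.6, 21.9, 17.8, 21.1 and 19.5 FPKM in the doxorubicin-plus-AMH libraries, against 33.4, 57.5, 40.2, 30.4 and 28.6 FPKM in the doxorubicin libraries. At 24 h it stood at 21.8, 23.7, 25.8, 21.7 and 21.5 FPKM in the doxorubicin-plus-AMH libraries, against 30.7, 42.9, 35.2, 45.7 and 34.7 FPKM in the doxorubicin libraries. In both pairs the highest library with AMH lay below the lowest without it. The log2 fold change was -0.80 ± 0.21 at 4 h (limma adjusted p = 0.44) and -0.69 ± 0.21 at 24 h (limma adjusted p = 0.14), so it did not pass over all genes. The doxorubicin libraries also serve the comparisons of doxorubicin with control. The interval of the difference was -1.22 to -0.38 at 4 h and -1.11 to -0.27 at 24 h, as 95% limits without adjustment. With AMH alone at 4 h Ddit4 averaged 25.5 ± 2.6 FPKM in AMH uteri and 18.7 ± 3.74 FPKM in control uteri (limma adjusted p = 0.12).

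The test of whether AMH acted differently with and without doxorubicin at 4 h was added after the data were seen. It gave 0 calls among the 37 genes with limma (0% of all genes called), and 0 with voom. An unadjusted p under 0.05 was reached by 11 of the 37 and by 2356 of all 16226 genes. The count of calls depended on the fit: it was 12 with only the groups compared and 11 with library weights. It was 1 when the high-oestrogen libraries were left out. The share of all genes called under these settings is not given here. Limma's estimates of the difference were -1.24 ± 0.29 for Ddit4 (adjusted p = 0.15), 1.34 for Calr, 1.65 for Sdf2l1 and 1.29 for Asns. At 24 h the same test gave 0 calls with limma (0% of all genes called), 0 with voom and 1 with library weights. There, 2 of the 37 and 675 of all 16226 genes had an unadjusted p under 0.05.

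Against control, doxorubicin with AMH gave 0 calls at 4 h with limma (0.394% of all genes called), and 0 with voom. Limma's unadjusted p was under 0.05 for 14 of the 37 and for 2875 of all 16226 genes. The count of calls was 9 with only the groups compared and 17 with library weights. It was 2 when the high-oestrogen libraries were left out. The share of all genes called under these settings is not given here. Calr, Pdia4 and Dnajb11 lay below every control library in every doxorubicin-plus-AMH library. The share of all genes without overlap was not counted. Calr stood at 235, 153, 186, 171 and 189 FPKM in the doxorubicin-plus-AMH libraries, against 378, 416, 242, 437 and 311 FPKM in the control libraries, a log2 fold change of -0.91 ± 0.32 (limma adjusted p = 0.16). The chaperones had a median log2 fold change of -0.58 here, where the same control libraries served the other comparisons at 4 h. Ddit3 lay above every control library, at 8.58, 10.1, 10.2, 8.76 and 9.44 FPKM.

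At 24 h doxorubicin with AMH had 23 of the 37 genes lower and 1 higher than control, where 34.3% of all genes were called, 18.6% lower and 15.7% higher. Of the 16 chaperones and foldases, 14 fell, all but Pdia5 and Dnajb9. Hspa5 stood at 80.4, 69.3, 112, 301 and 82.1 FPKM in the doxorubicin-plus-AMH libraries, against 466, 329, 105, 251 and 226 FPKM in the control libraries. Library 4 with doxorubicin and AMH was high, control library 3 was low, and the groups overlapped, as they did for all 37 genes. Hspa5 fell by 1.17 ± 0.34 (limma adjusted p = 0.010). Sdf2l1 stood at 7.68, 4.52, 12.3, 56.1 and 12.5 FPKM in the doxorubicin-plus-AMH libraries, against 61.3, 50.8, 9.84, 55.8 and 31.1 FPKM in the control libraries, a fall of 1.40 ± 0.51 (limma adjusted p = 0.032). The same library 4 stood far above the other 4.

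Degradation genes fell here too. Of 8 genes, 6 fell and 1, Edem2, rose. Herpud1 stood at 38.3, 34.2, 39.4, 48.2 and 31.8 FPKM in the doxorubicin-plus-AMH libraries, against 95.8, 52.5, 40.3, 55.1 and 65.8 FPKM in the control libraries, a fall of 0.63 ± 0.15 (limma adjusted p = 0.0024). Library 4 was the only 1 of its group above the lowest control. Syvn1, the ubiquitin ligase HRD1 at the centre of the degradation complex, had 12, 12.1, 11.9, 23.5 and 12.7 FPKM in the doxorubicin-plus-AMH libraries, against 33.3, 25.1, 15.3, 24.3 and 23.6 FPKM in the control libraries. It fell by 0.73 ± 0.16 (limma adjusted p = 0.002), with all but library 4 below every control. Sel1l, its partner, Edem1, a mannosidase-like lectin, and Derl1 and Derl2, which help move proteins out of the ER, fell by 0.26 to 0.57 on the log2 scale. In the translocon Sec61b fell by 1.00 ± 0.29 (limma adjusted p = 0.0099) and Ssr1 fell by 0.59.

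In the ATF4/CHOP arm, Atf4 alone fell with doxorubicin and AMH at 24 h. It stood at 47.4, 47.4, 51.5, 80.2 and 54.7 FPKM in the doxorubicin-plus-AMH libraries, against 128, 122, 62, 134 and 66.4 FPKM in the control libraries, a fall of 0.81 ± 0.18 (limma adjusted p = 0.0021). Asns had 4.81, 4.37, 6.93, 18 and 5.45 FPKM in the doxorubicin-plus-AMH libraries and was not called. Of the other lists, 34 of 68 ER and secretory genes fell and 3 rose, and 17 of 42 integrated stress response genes fell and 2 rose.

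The falls at 24 h with doxorubicin and AMH also rested on single libraries and on the control group, which the other 24 h comparisons shared. Leaving out 1 library gave 7 calls without control library 1 or 2, 11 without control library 4 or doxorubicin-plus-AMH library 1 or 2, 15 without library 3 and 14 without library 5 of that group. Atf4, Edem1, Herpud1, Hsp90b1, Hspa5 and Syvn1 remained called in all of these. With only the groups compared in the fit, however, 0 of the 37 genes were called. There the limma adjusted p was 0.0684 for Atf4, 0.0753 for Herpud1 and 0.103 for Hspa5. Without the 4 high-oestrogen libraries, which include 3 of the 5 controls at 24 h, 0 of the 37 genes were called by limma, and with the oestrogen-responsive mean as a covariate 0 were. Of 21 oestrogen-responsive genes tested, 13 fell and 0 rose, and their summed FPKM was 862 to 1088 in doxorubicin-plus-AMH libraries and 880 to 8239 in control libraries. Of 10 epithelial markers 4 fell and 1 rose, and 3 had a log2 fold change above 0 (median -0.62). Summed epithelial markers were 692 to 881 FPKM in doxorubicin-plus-AMH libraries and 722 to 2711 FPKM in control libraries. Their part in the members' values was not tested. Smooth muscle markers summed to 2218 to 2618 FPKM in the doxorubicin-plus-AMH libraries, with 9 of 10 lower. Stromal and skeletal muscle sums did not overlap either, at 1700 to 2088 and 36.6 to 63.8 FPKM in doxorubicin-plus-AMH libraries, against 2830 to 3746 and 78.2 to 224 FPKM in control libraries. The genes of these lists did not fall as a set. Of 10 stromal genes 4 fell and 0 rose, but 6 had a log2 fold change above 0 (median 0.25). The stromal mean log2(FPKM + 1) overlapped, at 6.86 to 7.17 in doxorubicin-plus-AMH libraries and 6.89 to 7.66 in control libraries. Of 3 skeletal muscle genes tested, 1 fell and 1 rose.

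**Figure D3:**
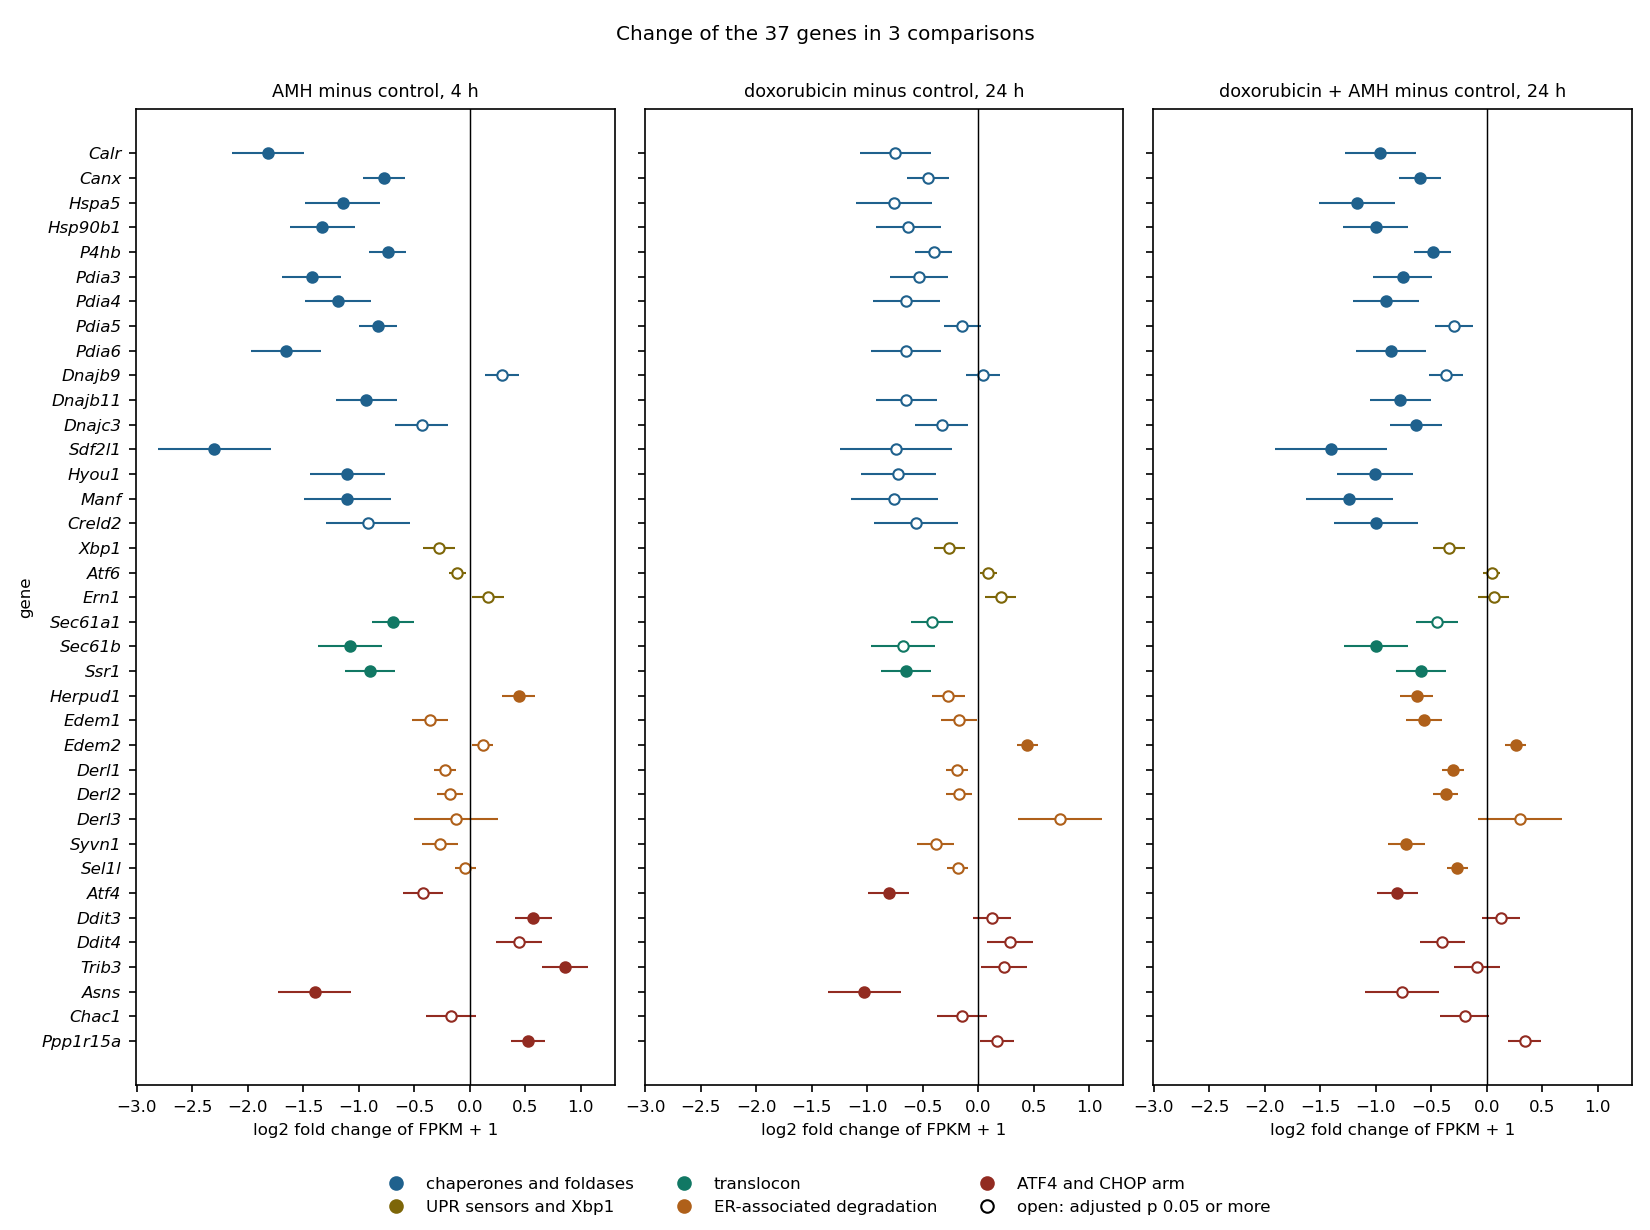
Log2 fold change (x axis, log2(FPKM + 1) scale) with SE of the 37 genes (lines, grouped by role) for AMH against control at 4 h, doxorubicin against control at 24 h and doxorubicin with AMH against control at 24 h; filled points had a limma adjusted p under 0.05 and open points did not. At 4 h with AMH, Herpud1, Trib3, Ddit3 and Ppp1r15a are filled on the right while most chaperones are filled on the left; with doxorubicin alone at 24 h 4 points are filled.

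Control uteri themselves differed between the times, and the 24 h controls serve every comparison with control at 24 h. In control uteri at 24 h against 4 h, 8 of the 37 genes rose and 0 fell (7.32% of all genes called, 4.28% higher). Herpud1 stood at 95.8, 52.5, 40.3, 55.1 and 65.8 FPKM in the 24 h controls, against 33.4, 32.5, 36.1, 35.9 and 32.8 FPKM in the 4 h controls. Every 24 h control lay above every 4 h control, and Herpud1 rose by 0.78 ± 0.15 (limma adjusted p = 0.0011). Dnajb9 had 36.3, 24, 15.9, 21.5 and 23.5 FPKM in the 24 h controls, against 13.7, 12.5, 11.9, 13.5 and 13.7 FPKM in the 4 h controls, a rise of 0.80 ± 0.15 (limma adjusted p = 0.0015). Syvn1 averaged 24.3 ± 6.36 FPKM in the 24 h controls and 14 ± 1.51 FPKM in the 4 h controls. Creld2, Xbp1, Derl2, Sel1l and Ddit4 also rose. Xbp1, the spliced factor of the IRE1 branch, averaged 81.7 ± 19 FPKM at 24 h and 58 ± 8.1 FPKM at 4 h; gene-level FPKM does not separate its spliced form. Without the high-oestrogen libraries none of these 8 was called by limma (adjusted p = 0.051 for Herpud1), and 1 other gene of the 37 was. With only the groups compared in the fit 0 of the 37 were called (limma adjusted p = 0.0858 for Herpud1 and 0.0717 for Dnajb9). Leaving out 1 library gave 3 calls without control library 5 at 4 h or library 1 at 24 h, 4 without library 2 at 24 h, 5 without library 4 at either time and 14 without library 3 at 24 h.

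The spread among the 24 h controls was wide for the chaperones as a group. The summed FPKM of the 16 chaperones and foldases at 24 h was 990 to 2457 in doxorubicin libraries, 834 to 2436 in doxorubicin-plus-AMH libraries and 889 to 2105 in AMH libraries, and it was 3013, 2769, 1064, 2642 and 1519 in control libraries 1 to 5. At 4 h it was 1236 to 1789 in doxorubicin libraries, 962 to 1369 in doxorubicin-plus-AMH libraries, 698 to 876 in AMH libraries and 1292 to 2070 in control libraries. Sdf2l1 alone averaged 17.2 ± 8.91 FPKM in doxorubicin uteri, 10.2 ± 4.57 FPKM in doxorubicin-plus-AMH uteri, 3.35 ± 0.72 FPKM in AMH uteri and 21.3 ± 7.2 FPKM in control uteri at 4 h. The AMH libraries were the lowest group in both measures. The highest 24 h controls were 1, 2 and 4, which are also the high-oestrogen ones. For 16 of the 30 genes of the chaperone and secretory arm, the highest value at 24 h was in control library 1, and for 6 it was in control library 2.

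Derl3, a degradation gene of the derlin family known from secretory cells, followed another set of libraries. At 24 h it had 2.37, 1.53, 5.12, 4.76 and 11.1 FPKM in the doxorubicin libraries, 2.12, 2.43, 2.41, 6.27 and 2.02 FPKM in the doxorubicin-plus-AMH libraries, and 3.43, 0.752, 1.25, 3.94 and 2.33 FPKM in the control libraries. At 4 h its highest value was 7.72 FPKM in doxorubicin library 4. The 5 highest of the 40 libraries were high-oviduct libraries, a split seen in the values and not tested, and the next were control libraries 4 and 1 at 24 h, which are not. Derl3 averaged 4.98 ± 3.76 FPKM in doxorubicin uteri and 2.34 ± 1.37 FPKM in control uteri at 24 h, and was called in none of the comparisons by limma. Chac1, a glutathione-degrading enzyme downstream of ATF4, was the lowest member, with group means of 0.240 FPKM in doxorubicin uteri at 4 h to 1.30 FPKM in control uteri at 24 h. Its highest value was 3.64 FPKM in control library 4 at 24 h and it was 0 in doxorubicin library 2 at 4 h.

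**Figure D4:**
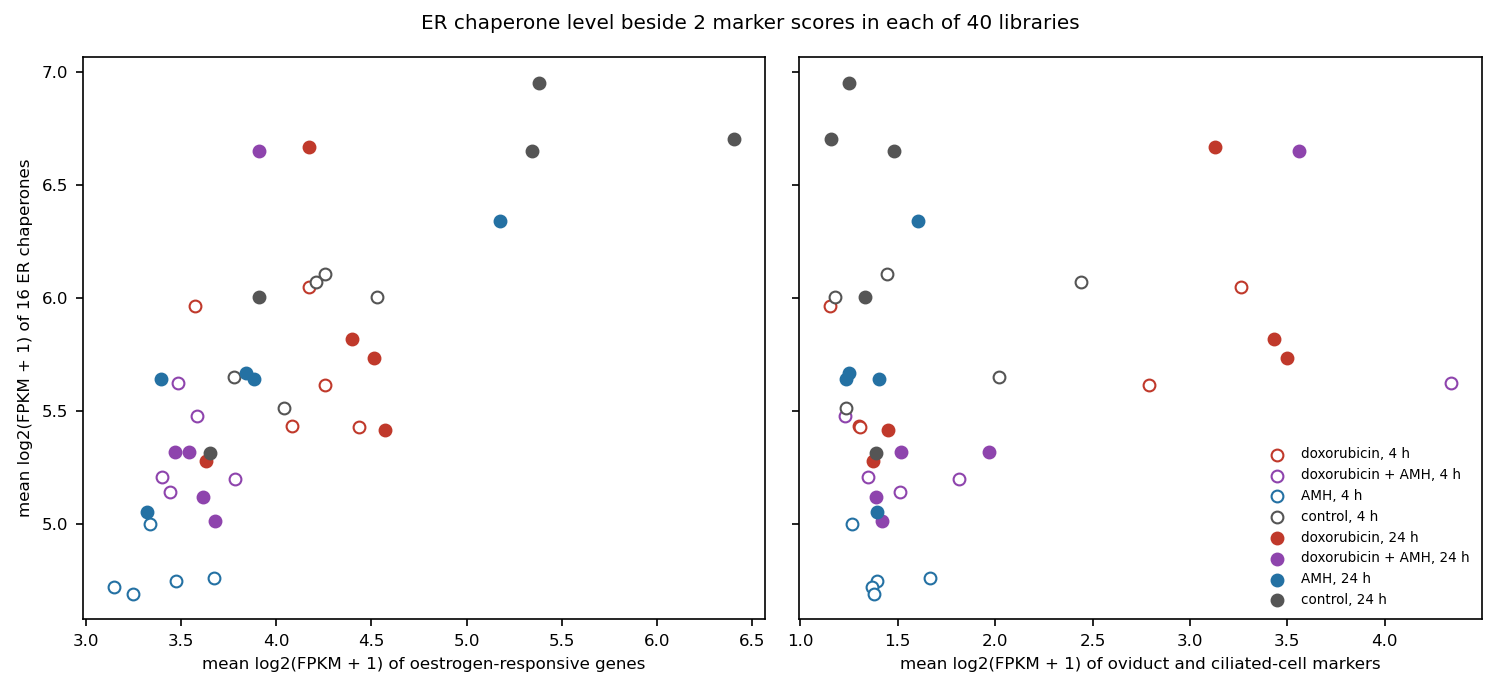
Mean log2(FPKM + 1) of the 16 chaperones and foldases (y axis) against the same mean of the oestrogen-responsive genes (x axis, first panel) and of the oviduct and ciliated cell markers (x axis, second panel) in the 40 libraries; open symbols are 4 h and filled symbols 24 h, coloured by treatment. The AMH libraries at 4 h form the lowest group on the chaperone axis, and control libraries 1, 2 and 4 at 24 h lie farthest right on the oestrogen axis and high on the chaperone axis.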

How the data were processed

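Bulk RNA of 40 uterus samples was extracted with a Qiagen kit before Novogene built the libraries, per the labels' protocols. The authors deposited FPKM values for 54532 genes in a single table that also holds names, coordinates and lengths, per the file headers. The build is mm10, per the submitters' processing notes. No source used here names the aligner, the read counter or a strand setting. To rebuild reads, FPKM was multiplied by gene length and divided by the library's smallest non-zero product, taken as a single read. This returned whole numbers for 100% of non-zero values (tolerance 0.01).

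The log2(FPKM + 1) values of all 8 groups were fitted together with limma (version 3.58.1, R 4.3.3, package data.table in version 1.17.8), with an intensity trend and 32 residual degrees of freedom. A gene was tested if 5 libraries or more reached 1 FPKM, which 16226 did. Two-sided p-values were adjusted over these genes by Benjamini-Hochberg in each of 13 comparisons, 2 of them added after the data were seen. The test was also run on simulated data with independent noise and the same spread of a gene in all groups. That run cannot show how the test behaves where groups differ in spread, as they do here. The 37 genes and the lists were chosen with earlier results of these data known. All 37 could be named; besides them, per comparison, up to 4 called genes with the smallest p of each other pathway list could be, as well as Cdkn1a and Id3 as label checks and markers.

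Other settings were a pseudocount of 0.1, filters at 5 FPKM and none, median-of-ratios factors (0.992 to 1.03), fits of the compared groups alone, library weights, robust variances, a block for the replicate number, voom on the rebuilt reads, and leaving each library out. Settings added after the data were seen left out high-oestrogen or high-oviduct libraries, or used the oestrogen-responsive mean as a covariate. RefSeq (GRCm38.p6) promoters of 5 genes (Hyou1, Sec61a1, Derl1, Manf and Atf6) were not matched. Figures used pandas 2.3.3 and matplotlib 3.10.9 under Python 3.11.15.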

Additional observations from a re-analysis of the deposited data

Results flagged for a closer look

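Within groups of 5 libraries, a gene's highest or lowest library was called apart when its gap to the next exceeded 0.71 of the group's range, Dixon's critical value, which chance passes in about 1 of 20 groups. Of 296 combinations of gene and group, 76 passed. Doxorubicin-plus-AMH library 4 at 24 h stood apart as highest for 27 of the 37 genes, doxorubicin library 5 at 24 h for 14 and AMH library 3 at 24 h for 10. In the doxorubicin-plus-AMH group at 24 h, Hspa5 was 301 FPKM in library 4 and at most 112 FPKM in the other 4, and Manf was 54 FPKM in library 4 and at most 14.9 FPKM in the other 4. That library and doxorubicin library 5 are high-oviduct libraries, and AMH library 3 is a high-oestrogen library. Summed ovary markers were 121 FPKM in doxorubicin library 5 and 121 FPKM in AMH library 3 at 24 h, against at most 15.02 and 17.9 FPKM in the rest of their groups, and 12.4 FPKM in doxorubicin-plus-AMH library 4. What these traits add to the chaperone values was not tested.

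At 4 h AMH library 2 stood apart as highest for 6 genes, among them Hspa5 and Pdia6, and as lowest for 1, Ddit3. Doxorubicin-plus-AMH library 5 stood apart as highest for 5 genes, among them Sdf2l1 and Derl3, and as lowest for 1, Chac1, and library 1 of that group stood apart as highest for 4, among them Asns. Single genes stood apart in the other flagged libraries, 1 each: Ern1 low in control library 4 at 24 h, Sel1l low in control library 4 at 4 h, Ppp1r15a high and P4hb low in doxorubicin library 3, Derl3 high in doxorubicin library 4 and Dnajb9 low in doxorubicin library 5 at 4 h, Ern1 high in AMH library 1 and Trib3 high in AMH library 5 at 4 h.

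The AMH effect on Herpud1 differed between 24 h and 4 h by -1.04 on the log2 scale, by limma's test of the difference itself.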

How the results depend on the processing

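Of 59 calls of single genes, 1307 values under other settings were computed: 981 kept direction and call, 324 kept the direction only, and 2 changed sign, both for doxorubicin with AMH against control at 24 h without the high-oestrogen libraries (Pdia3 0.0023 and Ssr1 0.011). Of 326 counts, 252 lay within 1.5 times the reported one. The cause of the others was not tested, beyond fewer libraries where some were left out. Counts of called members were as follows, without the share of all genes called under each setting unless 1 is given. AMH against control at 24 h gave 1 with a pseudocount of 0.1 and 1 with a filter at 5 FPKM. Without a filter, doxorubicin at 24 h gave 2, doxorubicin with AMH at 24 h gave 15 and the control times gave 5. With only the groups compared, doxorubicin gave 0 at 4 h and 0 at 24 h, doxorubicin with AMH gave 9 at 4 h and 0 at 24 h, the control times gave 0, AMH by time gave 0 and doxorubicin by AMH at 4 h gave 12. With library weights, doxorubicin at 24 h gave 27, AMH at 24 h 28, doxorubicin with AMH at 4 h 17, the control times 20, doxorubicin with AMH against doxorubicin 1 at 4 h and 10 at 24 h, doxorubicin by time 2, AMH by time 3, and doxorubicin by AMH 11 at 4 h and 1 at 24 h. Of all genes, 42.4% were then called for doxorubicin at 24 h, against 18.4% in the main fit. Voom on rebuilt reads gave 15 for doxorubicin with AMH at 24 h and 5 for the control times. Without the high-oestrogen libraries, doxorubicin at 24 h gave 0, doxorubicin with AMH 2 at 4 h and 0 at 24 h, doxorubicin with AMH against doxorubicin at 24 h 1, the control times 1, AMH by time 3 and doxorubicin by AMH at 4 h 1. Without the high-oviduct libraries, doxorubicin gave 0 at 4 h and 12 at 24 h. With the oestrogen-responsive mean as a covariate, doxorubicin at 24 h gave 2, AMH at 4 h 5, doxorubicin with AMH at 24 h 0, the control times 4 and AMH by time 2. Leaving out 1 library gave 14 to 21 for AMH at 4 h, 0 to 21 for AMH at 24 h, 0 to 1 for doxorubicin at 4 h, 2 to 23 for doxorubicin at 24 h, 7 to 30 for doxorubicin with AMH at 24 h, 3 to 14 for the control times, 0 to 2 for AMH by time and 0 for the others. Of 60 correlations of same-numbered libraries, 18 were over 0.1, from -0.715 to 0.388. Differently numbered libraries were not correlated, so whether the numbers pair libraries cannot be judged from these values. With the number as a replicate block all 13 counts stayed within 1.5 times, with 20 for AMH at 4 h and 22 for doxorubicin with AMH at 24 h. Depth limits Chac1, Trib3 and Derl3 most.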
